A study of Mus musculus with 54 samples.

Results

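Permissive chromatin of mouse microglia was compared 4 weeks after a first injection of lipopolysaccharide (LPS, a bacterial cell wall component) with that of microglia from mice never given LPS. The comparison rests on 6 peak lists, which are the LP and PP lists of ATAC-seq, H3K4me3 and H3K27ac, and together these held 275454 of the 556184 peaks listed for these assays in the 4 groups of this model. The 6 libraries are 6 of the 54 samples of the whole series. LP mice received LPS at 1 mg/kg into the peritoneum and, 4 weeks later, phosphate-buffered saline (PBS). PP mice received PBS both times. The PL group (PBS, then LPS) and the LL group (LPS both times) are used below only to show where a peak of LP or PP was found again. All mice were C57BL/6J males that arrived at 7 to 9 weeks of age, were given at least 2 weeks to settle, were housed singly, and were killed 3 h after the last injection. Microglia were sorted from brain by a gate on living cells with high CD11b and intermediate CD45 that lacked Ly6C. Each ATAC library came from 80000 cells pooled from 2 mice, and each ChIP-seq library from about 200000 cells out of chromatin pooled from 5 mice, so each list stands for 1 pooled library and its difference from another list has no replicate check. The intervals given below (Wilson, 95%) cover counting error over peaks only. The depth of the libraries is unknown from the lists, and fewer cells of a type or less signal per cell cannot be told apart in bulk samples.

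Microglia are the resident macrophages of the brain. Their LPS receptor is Toll-like receptor 4, which activates the NF-kB and interferon regulatory factors. ATAC-seq marks stretches of DNA that a transposase can reach, H3K4me3 sits at active and poised promoters, and H3K27ac marks active promoters and enhancers. Such marks can outlast the stimulus that laid them down, which is why they are studied as carriers of innate immune memory.

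The labelled cell type was checked against its markers. All 20 promoters of the homeostatic microglia list, among them those of P2ry12, Tmem119 and Cx3cr1, had a peak in LP and in PP for each of the 3 assays. No promoter of the 8 neutrophil genes and of the 8 lymphocyte genes had an ATAC peak in LP or in PP. H3K4me3 was listed at 1 neutrophil promoter in both groups and at 1 lymphocyte promoter in LP alone. H3K27ac was listed at 1 lymphocyte promoter in LP alone. Other lists had ATAC promoter peaks in both states, at 3 of 6 oligodendrocyte, 2 of 6 astrocyte, 2 of 5 endothelial and 3 of 8 border-associated macrophage genes. Of 5 monocyte genes, 1 had such a peak in LP and 2 in PP. Over all protein-coding and lncRNA genes, 42.2% had an ATAC promoter peak in both states. Of the 8 neuronal genes, 1 promoter had an ATAC peak in LP and 2 had in PP, whereas H3K4me3 covered all 8 in both groups.

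The ATAC sites found in a single list are shown first as sequence, because the regions themselves carry the comparison. The 200 bases around the summit are given for 4 LP-only and 2 PP-only peaks that held exactly 1 match to one of the 8 strings described below. Bases are from GRCm38 and are on the plus strand, and capitals mark the matching string. The window nearest to the start of Gm11788 (chr11:120510773-120510972, intergenic) holds an IRF string, that of Acy3 (chr19:3980448-3980647, intronic) a CTCF string, that of Socs3 (chr11:117974795-117974994, intergenic) a RUNX string and that of Mtrf1 (chr14:79394661-79394860, intergenic) an AP-1 string. These 4 are LP-only. They and the Gm3294 peak were among the 6 highest-scoring of their kind, and the Epb41l2 peak came from the places with only-peaks in 2 assays. The PP-only windows are nearest to Gm3294 (chr6:28929292-28929491, intronic, IRF string) and Epb41l2 (chr10:25383570-25383769, AP-1 string). Intronic means inside the body of any gene, outside exons and promoters, and not necessarily in the gene named. The Acy3 and Gm3294 peaks lay upstream of the named starts, at -6022 bp and -52242 bp.
Gm11788: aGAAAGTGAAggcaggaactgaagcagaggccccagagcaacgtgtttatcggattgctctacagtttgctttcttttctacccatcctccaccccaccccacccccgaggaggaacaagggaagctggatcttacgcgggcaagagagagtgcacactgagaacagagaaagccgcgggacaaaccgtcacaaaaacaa
Acy3: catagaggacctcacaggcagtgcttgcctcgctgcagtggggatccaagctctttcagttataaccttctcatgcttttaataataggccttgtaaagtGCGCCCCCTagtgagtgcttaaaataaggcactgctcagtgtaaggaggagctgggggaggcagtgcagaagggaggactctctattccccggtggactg
Socs3: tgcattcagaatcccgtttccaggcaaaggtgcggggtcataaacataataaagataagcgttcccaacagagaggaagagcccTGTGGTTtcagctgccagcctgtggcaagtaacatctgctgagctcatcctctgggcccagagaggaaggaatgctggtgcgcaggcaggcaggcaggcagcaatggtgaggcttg
Mtrf1: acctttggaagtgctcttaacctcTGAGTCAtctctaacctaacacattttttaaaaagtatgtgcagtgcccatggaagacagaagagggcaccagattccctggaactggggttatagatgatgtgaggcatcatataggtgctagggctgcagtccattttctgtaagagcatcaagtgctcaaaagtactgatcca
Gm3294: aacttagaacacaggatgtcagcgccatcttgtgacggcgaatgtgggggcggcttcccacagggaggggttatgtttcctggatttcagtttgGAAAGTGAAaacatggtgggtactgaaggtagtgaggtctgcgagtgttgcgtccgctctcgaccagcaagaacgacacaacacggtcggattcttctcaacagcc
Epb41l2: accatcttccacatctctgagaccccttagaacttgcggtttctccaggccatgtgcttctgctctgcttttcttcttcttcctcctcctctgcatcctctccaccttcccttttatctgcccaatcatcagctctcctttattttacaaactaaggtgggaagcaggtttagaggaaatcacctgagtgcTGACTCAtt

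All 6 sites had an ATAC peak in PL and in LL as well, so none of them was listed in a single library. Socs3 encodes a feedback inhibitor of cytokine receptor signalling, and its LP-only site lay at -5709 bp from the start. The ATAC peak near Epb41l2 lay inside a place where an H3K4me3 peak was also PP-only.

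The strings stand for the binding sequences of factors that shape microglial chromatin. They were PU.1 (GAGGAAGT), AP-1 (TGANTCA), IRF (GAAANNGAA), NF-kB (GGANNTTCC), C/EBP (TTGNNCAA), RUNX (TGTGGTT), MEF2 (CTAAAAATA) and CTCF (AGGGGGCGC), searched on both strands, and no string contains another although neighbouring matches can share bases. PU.1, the lineage factor of macrophages, had its string in 6.93% of the 7506 LP-only windows and 7.15% of the 12461 PP-only windows, against 9.73% of the windows of LP peaks shared with PP and 2.06% of windows of the same length at all starts of genes. The IRF string was in 8.22% of LP-only and 7.82% of PP-only windows, against 8.42% of shared LP windows and 5.31% at starts. For AP-1 the shares were 6.79% and 6.70% (6.92% in shared LP windows, 4.54% at starts), and for RUNX 5.65% and 5.70% (5.61%, 3.41%). In the same order, C/EBP had 4.22% and 4.37% (4.78%, 3.34%) and NF-kB 3.10% and 2.76% (3.07%, 2.87%). CTCF had 1.27% and 0.91% (1.36%, 0.89%) and MEF2 0.44% and 0.61% (0.56%, 0.25%). LP-only and PP-only windows were thus close to each other for most strings, and the PU.1 string was less common in both than in shared windows. Among distal peaks alone, PU.1 was in 7.57% of LP-only and 7.75% of PP-only windows, against 8.98% of the distal shared LP peaks that lay in the lowest 40% of scores. GC content averaged 50.2% in LP-only, 48.3% in PP-only and 52.7% in shared LP windows, and 56.5% at starts, so starts differ in base composition.

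The lists themselves moved in opposite directions. Open chromatin was listed at fewer sites in LP than in PP, and both histone marks at more. ATAC gave 65323 peaks over 32.8 Mb in LP and 69188 peaks over 35.3 Mb in PP, a difference in covered length of -6.87%. H3K4me3 gave 37905 peaks over 58.1 Mb in LP and 35761 peaks over 54.3 Mb in PP, a difference of 6.98%. H3K27ac gave 34641 peaks over 79.3 Mb in LP and 32636 peaks over 71.5 Mb in PP, a difference of 10.98%. In LL, which also had LPS first, ATAC gave 71667, H3K4me3 38992 and H3K27ac 32747 peaks. In PL the numbers were 70446, 35615 and 31263. LP thus had the shortest ATAC list and LL the longest. Median widths were 336 bp in LP and 327 bp in PP for ATAC, 1000 bp in both for H3K4me3, and 1400 bp in LP and 1200 bp in PP for H3K27ac.

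Most sites were common to both states. Counting an overlap of at least 1 bp, 88.5% of LP ATAC peaks (interval 88.3% to 88.8%) lay on a PP peak and 81.99% of PP peaks (81.7% to 82.3%) on an LP peak. For H3K4me3, 86.1% of LP peaks (85.7% to 86.4%) and 92.1% of PP peaks (91.8% to 92.4%) were shared. For H3K27ac, 83.3% of LP peaks (82.9% to 83.7%) and 90.96% of PP peaks (90.6% to 91.3%) were shared. In numbers, 7506 LP-only and 12461 PP-only peaks were left for ATAC, 5271 and 2825 for H3K4me3, and 5792 and 2949 for H3K27ac. The longer list of each pair thus held more peaks without a partner. When the longer list was cut to the length of the shorter by score, the only-peaks numbered 8918 in LP and 10210 in PP for ATAC, 3711 and 3383 for H3K4me3, and 4088 and 3223 for H3K27ac, so the ratio of LP-only to PP-only peaks went to 0.87 for ATAC, 1.10 for H3K4me3 and 1.27 for H3K27ac, against 0.602, 1.866 and 1.964 over whole lists.

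**Figure D1:**
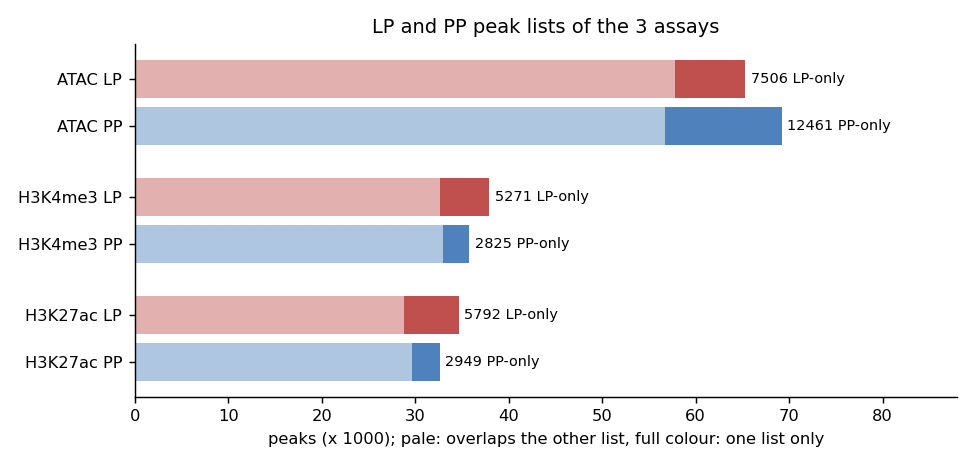
Number of peaks (in units of 1000, x axis) in the LP and PP lists of ATAC, H3K4me3 and H3K27ac, pale where a peak overlaps the other list and in full colour where it does not. PP-only peaks outnumbered LP-only peaks in ATAC (12461), and LP-only peaks outnumbered PP-only peaks in both marks (5271 and 5792).

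The LP and PP lists were also set against those of PL and LL. For ATAC, 83.4% of LP peaks were found in PL and 85.5% in LL, and 79.1% of PP peaks were found in PL and 81.4% in LL. LP and PP were each other's closest list on this measure. For H3K4me3 the share was highest with LL, at 91.3% of LP and 93.3% of PP peaks, and the LL list was also the longest with 38992 peaks. For H3K27ac, 78.7% of LP peaks were found in PL and 82.6% in LL, with 83.0% and 86.3% for PP peaks.

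Sites without a partner were weak and small. When each list was divided by -log10 p into 10 classes (4099 to 8990 peaks each for ATAC and about equal for the marks), in the weakest class 47.4% of LP and 62.2% of PP ATAC peaks had no partner, against 60.0% and 39.3% for H3K4me3 and 66.7% and 42.6% for H3K27ac. In the strongest class the share was 0 for all 6 lists. Their median score lay at the 14.4th percentile of the list in LP and at the 15.8th in PP for ATAC, the 11.1th and 8.68th for H3K4me3, and the 11.2th and 8.37th for H3K27ac. LP-only peaks had a median width of 157 bp in ATAC, 400 bp in H3K4me3 and 200 bp in H3K27ac, and PP-only peaks 153 bp, 200 bp and 200 bp. Shared LP peaks had medians of 386 bp, 1200 bp and 1600 bp. Peaks of the marks come in steps of 200 bp, the bin of the caller, and 59.8% of LP-only and 70.9% of PP-only H3K27ac peaks were 1 bin wide. All LP-only peaks together covered 3.87% of the LP bases of ATAC, 3.55% of H3K4me3 and 2.86% of H3K27ac, and all PP-only peaks 6.13%, 1.81% and 1.28% of the PP bases.

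**Figure D2:**
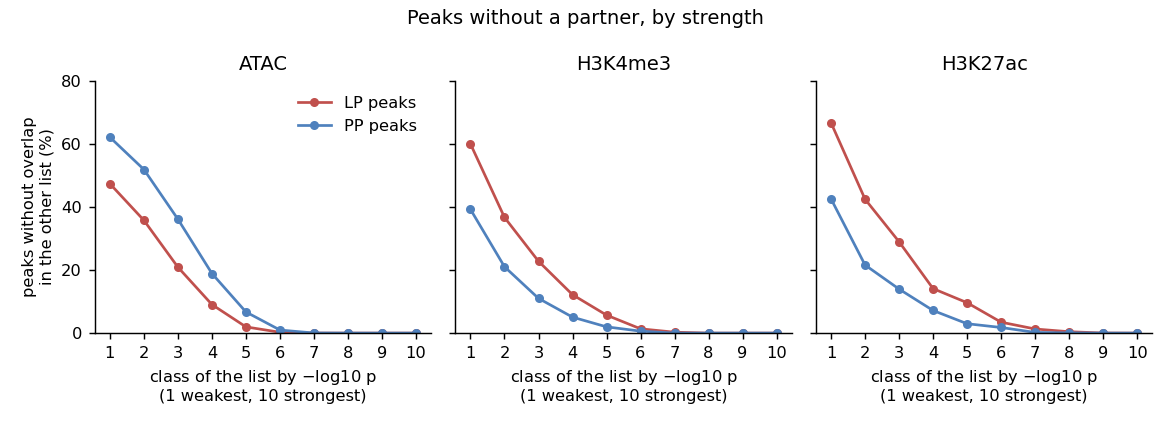
Share of peaks without overlap in the other list (y axis, %) by class of -log10 p from 1 (weakest) to 10 (x axis), for LP and PP peaks of each assay. The share falls from 47.4% (LP) and 62.2% (PP) in the weakest ATAC class to 0 in the strongest.

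Few only-peaks stood above the median score of their list. They numbered 80 in LP and 220 in PP for ATAC, 30 and 3 for H3K4me3, and 17 and 2 for H3K27ac. The 6 highest-scoring LP-only ATAC peaks were nearest to Gm11788, Acy3, Srebf1 (a regulator of lipid synthesis), Socs3, Mtrf1 and Neurl1a, all at the score limit of 1000 and all present in PL and LL. The PP-only ones were nearest to Gm3294, Gprasp2, Thrb (a thyroid hormone receptor), Gm15246, Ucp1 and March3, and those of Gprasp2, Thrb and Gm15246 were absent from PL while present in LL. LP-only H3K4me3 was led by Trim2 (score 124), Gm16172 (108), Gmnc (106), Gm38109 (104), Me2 (101) and Fat3 (101), and PP-only H3K4me3 by Mdh1, Pdp1 and Tlk1 (83 each), Gm44969 and Rpap3 (79 each) and Ptpn18 (78). LP-only H3K27ac was led by the promoter of Cldn1, a tight junction gene (score 99), by a site at 38086 bp from the start of Socs3 (87), and by the promoters of Pcdhgb6 (87), 1110036E04Rik (86) and Gramd1c (84), with a site near Gm47520 (81). PP-only H3K27ac was led by Gm42418 (94), an annotation over ribosomal DNA, followed by Kazn (80), Zdhhc17 (74), Srgap3 and Gm14285 (73 each) and Adam23 (71). Most of these H3K27ac peaks were 200 bp wide. The peak at Cldn1 and that at Adam23 were each found in none of the other 3 lists.

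Only-peaks were listed at promoters less often than shared peaks. They were also narrower, and a narrow peak reaches into the window less often. Shared peaks of like width or score were not set beside them here. Within 1000 bp of a start lay 14.4% of LP-only and 12.0% of PP-only ATAC peaks, against 26.4% and 26.7% of shared peaks of LP and PP. For H3K4me3, the promoter mark, the shares were 5.29% of LP-only and 11.5% of PP-only peaks, against 46.3% and 45.8% of shared ones. For H3K27ac they were 9.38% and 13.6%, against 43.5% and 42.2%. Introns held 49.8% of LP-only and 50.4% of PP-only ATAC peaks. By chromosome, the X held 1.15% of LP-only ATAC peaks (86 peaks) and 3.02% of PP-only ones (376 peaks), against 2.33% of shared LP peaks. Chromosome 11 went the other way, with 753 LP-only and 409 PP-only ATAC peaks, as did chromosome 19 with 255 and 218 and, with 4 and 1, the Y. PP-only ATAC peaks were the more numerous on every other chromosome. A number of only-peaks sat at the edge of a shared site, and 56.6% of LP-only and 57.5% of PP-only ATAC peaks lay at least 1000 bp from any peak of the other list, as did 89.1% and 79.4% for H3K4me3 and 79.96% and 59.7% for H3K27ac.

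Many of these sites came back in PL or LL, 2 lists that the definition did not use. Of LP-only ATAC peaks, 45.4% were found in PL, 46.5% in LL and 40.9% in neither, and of PP-only ATAC peaks 35.2%, 38.6% and 50.8%. Of LP-only H3K4me3 peaks, 31.4% were found in PL and 52.2% in LL, and of PP-only ones 32.6% and 45.6%. H3K27ac sites came back least, with 63.6% of LP-only and 64.9% of PP-only peaks in neither list. Shared LP peaks were found in LL at 90.6% for ATAC, 97.6% for H3K4me3 and 93.3% for H3K27ac.

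When the 4 lists of an assay were merged into places, 45602 of 87678 ATAC places (52.0%), 30454 of 44025 H3K4me3 places (69.2%) and 24894 of 39889 H3K27ac places (62.4%) were held by all 4 lists. Of the places in exactly 2 lists, LP and LL share LPS as the first injection, and PP and PL share PBS. For H3K4me3, 1241 places were held by LP and LL alone and 237 by PP and PL alone, 509 by PL and LL and 342 by LP and PP, which share the last injection, and 300 by LP and PL and 500 by PP and LL, which share neither. LL and LP were also the longest H3K4me3 lists, with 38992 and 37905 peaks against 35761 in PP and 35615 in PL. For H3K27ac the counts were 639 for LP and LL, 177 for PP and PL, 612 for PL and LL, 1236 for LP and PP, 318 for LP and PL, and 238 for PP and LL. For ATAC they were 884, 1173, 4415, 3068, 833 and 1521 in the same order. Pairs that share the last injection thus held the most places in ATAC and, through LP and PP, in H3K27ac, whereas the pair with LPS first led in H3K4me3. With 1 library a group, pool and group cannot be told apart.

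**Figure D3:**
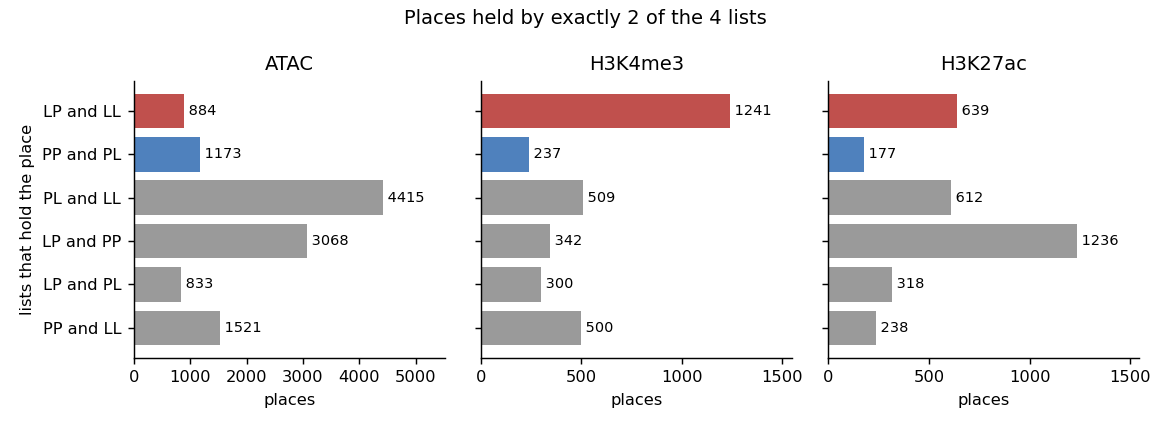
Places (x axis, count) held by exactly 2 of the 4 peak lists of each assay, red for LP and LL (LPS first) and blue for PP and PL (PBS first). The H3K4me3 panel is led by LP and LL with 1241 places, the ATAC panel by PL and LL with 4415, and the H3K27ac panel by LP and PP with 1236.

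The 3 assays rarely lost or gained the same place. Of LP-only H3K4me3 peaks, 6.62% overlapped an LP-only H3K27ac peak, 51.2% a shared H3K27ac peak and 40.9% no H3K27ac peak. Of PP-only H3K4me3 peaks, 2.09% overlapped a PP-only H3K27ac peak, 3.08% an LP-only one, 37.3% a shared one and 57.7% none. An LP-only ATAC peak lay on a shared H3K27ac peak in 49.8% and on an LP-only one in 2.86% of cases, and a PP-only ATAC peak in 35.4% and, for PP-only H3K27ac, in 1.21% of cases. Neither stood out, since shared ATAC peaks of LP lay on an LP-only H3K27ac peak in 2.73% and PP-only ATAC peaks on an LP-only H3K27ac peak in 2.71% of cases. Shared H3K4me3 peaks of LP lay on a shared H3K27ac peak in 74.9%, on an LP-only one in 3.92% and on none in 19.7% of cases. LP-only H3K4me3 peaks thus met shared H3K27ac less often than shared H3K4me3 peaks did, and LP-only H3K27ac more often. Of LP-only H3K27ac peaks, 65.0% had no ATAC peak in LP or PP, as had 68.4% of PP-only ones. Among shared H3K27ac peaks the share was 10.0% for LP and 11.7% for PP. Width differs between these sets, and a narrow peak meets another peak less often. Median H3K27ac widths were 200 bp for LP-only and PP-only peaks, against 1600 bp and 1400 bp for shared peaks of LP and PP. For H3K4me3 they were 400 bp for LP-only and 1200 bp for shared LP peaks. Peaks of like width were not compared across assays.

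Only-peaks of 2 or more assays overlapped at 774 places for LP and 320 for PP, and at 23 and 8 of them in all 3 assays. The strongest LP places were near Gm17364 (ATAC and H3K4me3), Cstad (both marks), Olfr312 (all 3 assays, 857 bp from the start), Gm15597, Cdhr1 and Gm40264. At Olfr312, an olfactory receptor gene, the ATAC peak was 188 bp, the H3K4me3 peak 400 bp and the H3K27ac peak 200 bp wide in LP, and only the H3K4me3 peak was found again, in LL. The strongest PP places were near Epb41l2, Cfap100, Tmem267, Tmed10, Zdhhc17 and Zfp534, each with an ATAC peak that PL and LL also had. Places whose peaks were all in LL and not in PL numbered 32 of 774 for LP and 15 of 320 for PP.

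Sites common to both lists were compared in pairs. One LP peak and one PP peak overlapped each other alone in 49511 ATAC, 31586 H3K4me3 and 26649 H3K27ac pairs. The median log2 ratio of LP to PP width was -0.036 for ATAC, 0 for H3K4me3 and 0 for H3K27ac. ATAC peaks were wider in LP in 43.2% of pairs and narrower in 56.0%. H3K4me3 peaks were wider in LP in 39.97%, narrower in 26.7% and equal in 33.3% of pairs, and H3K27ac peaks in 49.5%, 24.6% and 25.9%. The summits of paired ATAC peaks lay a median of 18 bp apart, and 76.3% were within 50 bp. Over pairs, the scores of LP and PP correlated with a Spearman rho of 0.80 for ATAC (0.93 for -log10 p), 0.90 for H3K4me3 and 0.89 for H3K27ac. These correlations run across peaks of the same genome, which are not replicates. The ATAC score stops at 1000, a value that 39.3% of LP and 39.96% of PP peaks reached.

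H3K27ac pairs were wider in LP more often at distal sites than at promoters. Distal pairs had a median log2 ratio of 0.11 with 54.2% wider in LP, whereas promoter pairs had a median of 0 with 43.6% wider. For H3K4me3, 44.4% of distal and 34.8% of promoter pairs were wider in LP. For ATAC, 42.0% of distal and 46.7% of promoter pairs were wider in LP. An LP width of more than 2 times the PP width was seen in 6.83% of H3K27ac, 4.61% of H3K4me3 and 2.45% of ATAC pairs, and the reverse in 2.23%, 1.89% and 4.22%. LP peaks that spanned 2 or more PP peaks numbered 1237 for H3K27ac, against 521 PP peaks that spanned 2 or more LP peaks. For H3K4me3 the numbers were 539 and 266, and for ATAC 2181 and 3114. Scores of the marks were higher in LP in 64.4% of H3K4me3 and 63.0% of H3K27ac pairs, and ATAC scores in 25.03%, with 39.9% equal.

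**Figure D4:**
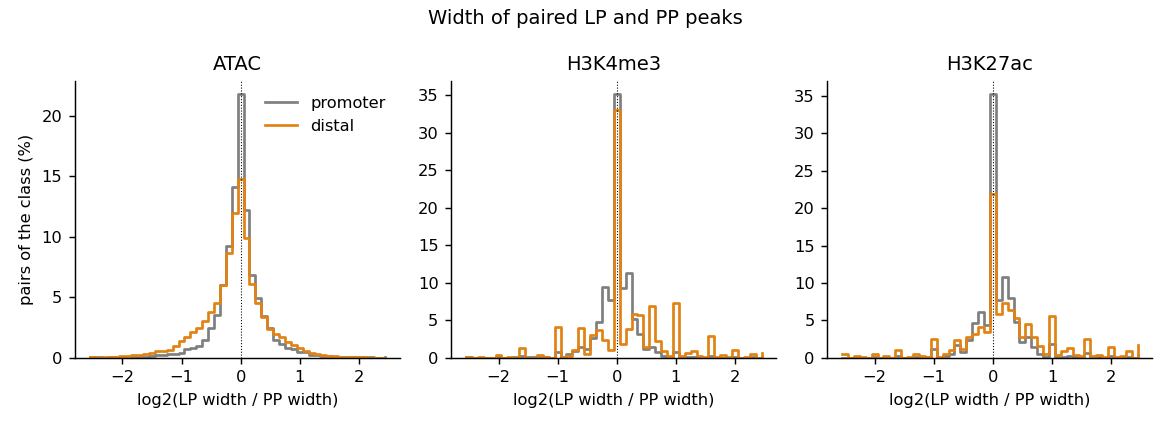
Distribution of the log2 ratio of LP to PP width (x axis) over paired peaks of each assay, as percent of the pairs of the class (y axis), for promoter and distal pairs, with values beyond 2.5 put into the last bin. The marks pile up at 0 because their widths come in steps of 200 bp, and the distal H3K27ac pairs lean to the wider side (54.2% wider in LP).

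Some pairs changed rank strongly. For ATAC the largest gains in LP were near Gm44889, Ssh1, Tmem54 and Tns2 (80 percentile points for Gm44889) and the largest losses near Gm37002, Pex26, Slc44a1 and Csnk1g3. For H3K4me3 the gains were near Glrx, Cst6, Rere and Il1r1, the receptor of interleukin-1, and the losses near Trmt12, Smox, Tbc1d22a and Med15. At Il1r1 the score was 401 in LP and 57 in PP, over a width of 1000 bp in LP and 1800 bp in PP. For H3K27ac the gains were near Gm36229, Eef1e1, Sec61a2 and Cep78, and the losses near Gm26730, Casp6, Lrrc34 and Trim21, an interferon-inducible ubiquitin ligase with a score of 59 in LP and 154 in PP. All 8 named gains of the marks were narrower in LP than in PP, and all 8 named losses were wider in LP.

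At the promoters of genes, few were covered in a single state. Of 35312 protein-coding and lncRNA genes, 324 had an ATAC promoter peak in LP alone and 508 in PP alone, beside 14894 with it in both. H3K4me3 gave 283 and 286 beside 17838, and H3K27ac 463 and 311 beside 15210. In the microglial and immune gene lists the numbers were small, and the counts are set against those over all genes. There, 46.3% of ATAC, 35.1% of H3K4me3 and 43.4% of H3K27ac promoter pairs were wider in LP. In the same order, 53.2%, 31.2% and 23.5% were narrower.

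Interferon-stimulated genes, the antiviral programme, had H3K4me3 promoter peaks at 23 of 26 genes in both states, and of these 10 were wider and 1 was narrower in LP. With H3K27ac, 21 had the peak in both, 8 of 21 paired were wider and 3 were narrower. At Oasl1, which acts in the antiviral response, the overlapping H3K27ac peak was 1800 bp in LP and 400 bp in PP. Oasl2 had 800 bp in LP and 200 bp in PP, and Rsad2 (viperin) 600 bp in LP and 200 bp in PP. PL and LL had 800 bp each at Oasl2, and at Rsad2 LL had 400 bp while PL had no peak. The PP peaks of Oasl2 and Rsad2 were a single bin of the caller. A 200 bp H3K27ac peak at Ifit2 was found in LP and not in PP. ATAC promoter peaks of this list were wider in LP at 8 and narrower at 12 of 20 paired genes.

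Inflammatory cytokines had H3K27ac promoter pairs at 7 genes, 6 wider and 1 narrower in LP, and ATAC pairs at 8 genes, 2 wider and 6 narrower in LP. Chemokines had H3K27ac pairs at 7 genes, 4 wider and 0 narrower. In LP alone, H3K4me3 promoter peaks were listed at Il1b (600 bp), at the monocyte-attracting chemokine genes Ccl2 (600 bp) and Ccl7 (200 bp), and an H3K27ac peak at Il12a (200 bp). ATAC had a PP-only promoter peak at Cxcl2, a neutrophil-attracting chemokine (249 bp). All had low scores in their list, at the 23.1th percentile or below.

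At Il1b (chr2:129364570-129371139, minus strand), which encodes the cytokine interleukin-1 beta, LP had 3 ATAC peaks that PP lacked, at -16598, -16838 and -22554 bp from the start. Their scores of 281, 306 and 239 were low, at the 14.1th, 16.5th and 9.66th percentile of the LP list. All 3 were found in PL and LL. The Il1b promoter itself had no ATAC peak in LP or PP, and one of 341 bp in PL and of 311 bp in LL. H3K27ac covered the promoter with 4800 bp in LP and 4400 bp in PP. The H3K4me3 peak there was 600 bp in LP with a score of 30, was absent from PP and LL, and was 1000 bp in PL. RNA of Il1b was 2.57, 4.70 and 4.60 CPM in the 3 LP mice, against 2.77, 3.46 and 3.05 CPM in the 3 PP mice, and the groups overlapped.

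At Tnf, the gene of tumour necrosis factor, H3K27ac spanned 4200 bp in LP and 2800 bp in PP, H3K4me3 2800 bp and 2600 bp, and the paired ATAC promoter peak 254 bp and 449 bp. Within 50000 bp of its start, 5 LP-only and 6 PP-only ATAC peaks were listed, in a dense stretch of 27 LP and 29 PP peaks that includes Lta, Ltb and Aif1. Tnf RNA was 4.01, 4.89 and 6.40 CPM in LP and 6.69, 4.68 and 5.72 CPM in PP. Ccl3, a chemokine gene, had 1800 bp in both states for each mark, and 3 PP-only ATAC peaks but no LP-only ones within 50000 bp. Its RNA was 12.7, 12.8 and 17.999 CPM in LP and 21.5, 19.2 and 14.5 CPM in PP, with an adjusted p of 0.97 by edgeR's quasi-likelihood test.

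Among genes of NF-kB subunits and inhibitors, 13 had paired H3K27ac promoter peaks, 9 wider and 3 narrower in LP. At Nfkb1, which encodes the p50 subunit, H3K27ac spanned 6000 bp in LP and 3800 bp in PP, H3K4me3 3400 bp in both, and the ATAC promoter peak 1468 bp and 1807 bp. No ATAC peak within 50000 bp of the Nfkb1 start was LP-only and 4 were PP-only. Relb had H3K27ac of 2600 bp in LP and 2200 bp in PP, and H3K4me3 of 2000 bp in both. At Tnip1, an inhibitor of NF-kB signalling, H3K4me3 spanned 2800 bp in LP with a score of 119 and 1200 bp in PP with a score of 427. Tnip3 had an ATAC promoter peak of 192 bp in PP and none in LP. Genes of LPS receptor signalling, such as Tlr4 and Cd14, had all 16 promoters covered in both states by each assay, and the 16 immediate early genes likewise. H3K27ac was wider in LP at 8 of 13 paired receptor signalling promoters and at 7 of 16 immediate early promoters, and narrower at 3 and at 2. Over all genes, 43.4% of H3K27ac promoter pairs were wider in LP and 23.5% narrower.

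Primed microglia genes, which rise in aged and diseased brain, had 8 of 10 paired H3K27ac promoters wider and 2 narrower in LP. Of 7 paired ATAC promoters, 2 were wider and 5 narrower. Over all genes, ATAC promoter pairs were also narrower in LP (53.2%) more often than wider (46.3%). At Igf1, the growth factor gene, H3K27ac was 2000 bp in LP and 400 bp in PP, while the paired ATAC peak was 285 bp in LP and 776 bp in PP. At Ch25h, a cholesterol hydroxylase gene, the ATAC peak was 345 bp in LP and 864 bp in PP. Apoe had an ATAC promoter peak of 117 bp in LP and none in PP. Antigen presentation genes had 9 of 12 ATAC pairs wider in LP, led by Psmb8 (558 bp in LP, 233 bp in PP), an immunoproteasome subunit. Ciita, the master regulator of MHC class II, had H3K4me3 of 2200 bp in LP and 600 bp in PP, and 2200 bp in PL and 2400 bp in LL. Cd40 had a 400 bp H3K27ac peak in PP and none in LP, and H2-Aa a 200 bp one in LP and none in PP. The microglial transcription factors had all 12 promoters covered in each assay, and at Runx1 the largest ATAC ratio of the list came from a paired peak of 573 bp in LP and 239 bp in PP within a promoter that holds several peaks.

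**Figure D5:**
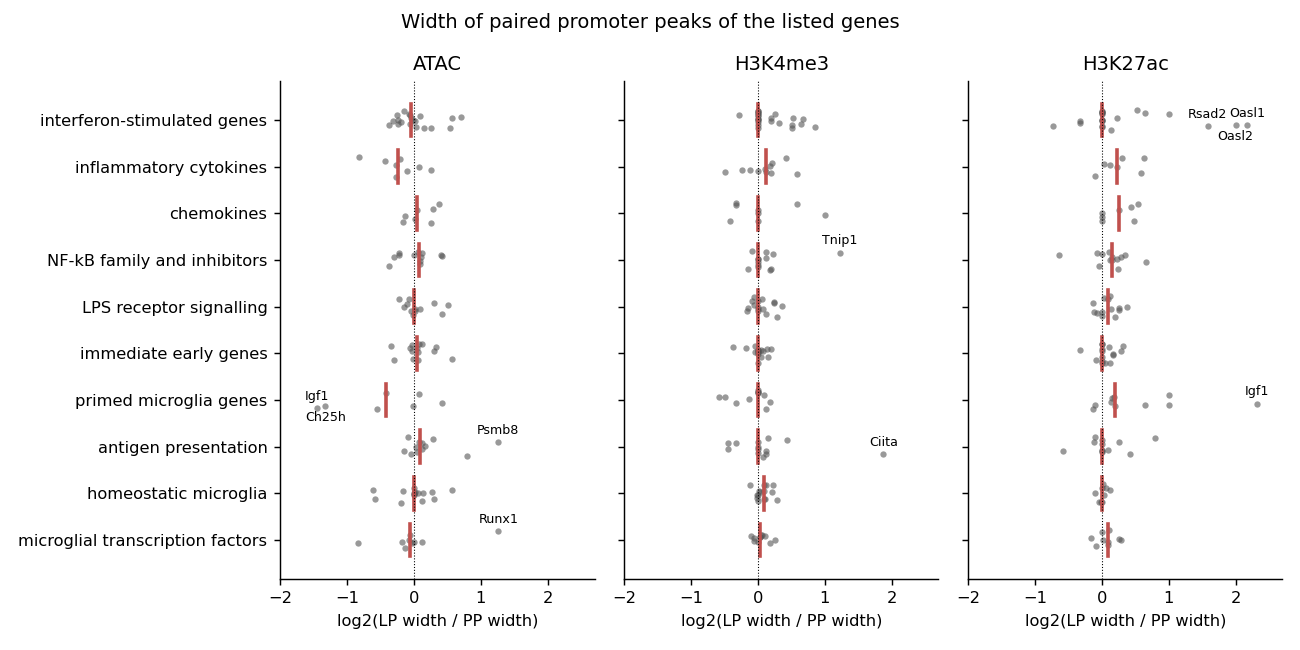
Log2 ratio of LP to PP width (x axis) of paired promoter peaks, a point for each gene of the 10 microglial and immune lists (rows) and a red bar at the list median, for ATAC, H3K4me3 and H3K27ac. Genes with a ratio beyond 1.2 in size are named, among them Igf1 at 2.32 and Oasl1 at 2.17 for H3K27ac.

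Only-peaks were also counted by the list of the nearest gene. Of the ATAC peaks nearest to NF-kB family genes, 6 of 92 in LP and 26 of 114 in PP lacked a partner, and 3 of 42 and 10 of 48 nearest to chemokine genes, against 11.5% of LP and 18.01% of PP peaks in all. The inflammatory cytokines had 9 of 68 in LP and 6 of 65 in PP. For H3K27ac, 31 of 99 LP peaks and 13 of 87 PP peaks nearest to homeostatic microglia genes lacked a partner, against 16.7% and 9.04% of all peaks. These shares rest on few peaks and carry no test.

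Markers of other cells were read in the same way. Neuronal H3K4me3 promoter peaks were narrower in LP at 5 of 8 genes and wider at 1, with Gad1 at 1200 bp in LP and 2800 bp in PP, and those of oligodendrocytes were narrower at all 3 paired genes. H3K27ac promoter peaks of Mag (400 bp in 2 peaks) and Aldh1l1 (200 bp) were listed in LP and not in PP. Endothelial genes had 3 paired H3K27ac promoters, 2 of them wider in LP. S100a8, a neutrophil gene, had H3K4me3 of 400 bp in LP and 200 bp in PP. ATAC promoter peaks of Syt1 and Plac8 were in PP alone, and an H3K4me3 peak of F13a1, a gene of border-associated macrophages, was in PP alone. The part of other cells in the differences was not tested.

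RNA of the same groups, with 3 mice each, gave a replicated readout at these genes. Of 16096 genes tested with edgeR's quasi-likelihood test, 0 were called higher in LP (0%) and 0 lower (0%) at an adjusted p of 0.01 and a log2 fold change of 1, and 817 had an unadjusted p under 0.05 (5.08%). DESeq2 called 1 gene higher, Ptgds, a prostaglandin synthase (adjusted p 6.5e-05), and limma with surrogate variables 1, H2-Aa, an MHC class II chain (adjusted p 0.0060). All edgeR values named here have an adjusted p of 0.40 or more. Oasl1 had 0.96, 2.26 and 2.60 CPM in LP, against 0.46, 0.71 and 0.76 CPM in PP, a log2 fold change of 1.60 (adjusted p 0.84). Rsad2 had 3.37, 5.14 and 4.00 CPM in LP, against 2.42, 1.73 and 1.33 CPM in PP, a log2 fold change of 1.21 (adjusted p 0.79). Oasl2 had 9.14, 9.22 and 8.60 CPM in LP and 7.15, 6.41 and 9.15 CPM in PP, and its groups overlapped. Those of Oasl1 and Rsad2 did not, at low CPM. How often 3 LP mice lie apart from 3 PP mice over all genes tested was not counted. Cd40, whose H3K27ac promoter peak was in PP alone, had 0.16, 1.32 and 1.80 CPM in LP, against 0.46, 0.39 and 0.57 CPM in PP. Log2 fold changes were positive for 53.6% of all genes tested. Within lists they were positive for 20 of 25 tested interferon-stimulated, 9 of 11 primed microglia and 13 of 15 antigen presentation genes, with medians of 0.17, 0.16 and 0.14, for 14 of 20 homeostatic, 10 of 14 NF-kB, 11 of 16 receptor signalling, 8 of 12 chemokine, 6 of 12 transcription factor and 7 of 15 immediate early genes, and for 3 of 10 inflammatory cytokine genes, with a median of -0.13. H2-Aa had 15.7, 13.5 and 53.6 CPM in LP, against 7.96, 8.65 and 2.48 CPM in PP.

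RNA was also summarised over genes with a promoter peak in a single state. Genes with an ATAC promoter peak in LP and none in PP had a median log2 fold change of 0.12 (116 tested), and those with one in PP and none in LP 0.31 (124 tested), against 0.01 over all genes. For H3K4me3 the medians were -0.05 (71 tested) and 0.06 (38 tested), and for H3K27ac 0.11 (96 tested) and 0.80 (115 tested). The last group, with the mark in PP alone, had a positive value in 77.4% of its genes, against the 53.6% of all genes. With surrogate variables in limma its median was 0.18, and the ATAC medians were 0.019 (LP) and 0.041 (PP). Single mice also moved these medians, as the PP-alone ATAC group had 0.15 without LP mouse 2 and the LP-alone H3K27ac group 0.022 without it. Nearest genes of distal only-peaks had medians from -0.0044 to 0.0101. RNA of marker genes for other brain cells was higher in LP as a group without passing the test. Median log2 fold changes were 1.19 for the 8 neuronal and 1.15 for the 6 astrocyte genes. They were 0.64 for the 6 oligodendrocyte and 1.26 for 3 tested erythrocyte genes. The neuronal rise was not seen in all LP mice. Each of the 8 genes was higher in LP mice 1 and 2 than in any PP mouse, but not in LP mouse 3. Slc17a7, for example, had 17.3, 15.5 and 2.9998 CPM in LP, against 1.73, 4.68 and 8.57 CPM in PP. The part of these marker genes in the medians of genes with a promoter peak in a single state was not tested.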

How the data were processed

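ATAC-seq, H3K4me3 and H3K27ac peak lists of the LP, PP, PL and LL groups and RNA counts of the same groups were analysed, with groups taken from the sample labels. The authors aligned reads to GRCm38 with Bowtie2 2.3.5.1 and used Genrich 0.5 (p limit 0.01) to call open sites. For both marks they ran SPAN with the input as control and adjusted its settings by eye. Each deposited list has a score and a -log10 p, to which ATAC lists add a signal and mark lists a -log10 q. The lowest -log10 q was 4.00 for H3K4me3 and 6.00 for H3K27ac. The authors made the deposited RNA tables of expected counts with STAR 2.7.3a and featureCounts 2.0.0. Of these values 79.0% were whole, and all were rounded.

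Peaks on 21 chromosomes were compared with bedtools 2.31.1 at an overlap of at least 1 bp, without a test. Promoters are within 1000 bp of a start of 21938 protein-coding and 13374 lncRNA genes, and a promoter peak of a gene is any peak that reaches into that window. Peaks at its edge can count in 1 list alone although they overlap, as for Oasl1. Percentiles of score are within a list, with ATAC ties left as ties, and ranks among the highest ATAC scores were split by signal. Strings were searched in 200 bp around summits. Of 220 genes in 19 lists, 218 matched. RNA was tested with edgeR 4.0.16 (TMM, filterByExpr, all 12 libraries, group means). The libraries held 4529972 to 15307360 counts. The edgeR steps were tested on simulated data. Alternatives were DESeq2 1.42.0, limma 3.58.1 with sva 3.50.0 (2 surrogate variables), RLE scaling, no filter, LP and PP alone, a replicate block and each mouse left out. In the main fit, p-values rest on the spread between 3 mice a group, pooled over LP, PP, PL and LL.

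Named genes were the loci Il1b, Tnf, Ccl3, Nfkb1 and Relb, the 6 highest-scoring LP-only and PP-only peaks of each assay, up to 6 places with only-peaks of 2 or more assays, the 4 listed genes with the largest width ratio, listed genes with a promoter peak in a single list, and the 4 largest rank changes in each direction. Other genes were named after their values were seen. The members and lists were chosen with earlier results of these data known. The authors' other assays and groups, coverage tracks and input libraries were not used here.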

Additional observations from a re-analysis of the deposited data

How the results depend on the processing

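Peak sharing depended little on the overlap and more on list length. At an overlap of at least 50% of the shorter peak, sharing was 87.9% of LP and 81.4% of PP ATAC peaks, and 90.6% of PP H3K27ac peaks. With equal numbers of peaks it was 86.3% of LP and 84.4% of PP peaks for ATAC, 89.6% and 90.5% for H3K4me3, and 87.5% and 90.1% for H3K27ac. In the highest-scoring 50% of each list it was 89.6% and 84.0% for ATAC, 86.6% and 91.8% for H3K4me3, and 86.2% and 92.6% for H3K27ac. In these stricter lists a peak also counts as unshared when its partner lies in the lower 50% of the other list, and they left 3391 LP-only and 5541 PP-only ATAC peaks, 2543 and 1467 H3K4me3 peaks, and 2383 and 1208 H3K27ac peaks, and the rank correlation of scores was 0.35 for ATAC, 0.83 for H3K4me3 and 0.78 for H3K27ac. The ATAC correlation was 0.93 by -log10 p and 0.94 by signal. Ranking by signal was chosen after seeing the data, as was the demand for 1000 bp to the other list, which left 4250 LP-only and 7169 PP-only ATAC peaks and 1762 PP-only H3K27ac peaks. The median width ratio stayed negative for ATAC and at 0 for both marks under each setting.

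For RNA, genes called higher in LP numbered 1 with DESeq2, 1 with limma and sva, and 2 without a filter on low counts, against 0 with edgeR, and 0 were called lower under each setting. At an adjusted p of 0.05 alone, edgeR without that filter passed 51 genes higher and 6 lower in LP, against 0 and 0 with it. Leaving out each mouse in turn gave 0 to 0 calls in each direction, although 6 genes passed an adjusted p of 0.05 without LP mouse 3. The replicate block called 0 higher and 0 lower genes, with a smallest adjusted p of 0.16. Same-numbered LP and PP mice did not deviate together, with correlations of -0.35, -0.05 and -0.41. These values cannot exclude that same-numbered libraries were handled together, which the labels do not state. Median RNA log2 fold changes of genes with a promoter peak in a single state varied widely: from 0.019 to 0.24 (LP alone) and from 0.041 to 0.48 (PP alone) for ATAC, from -0.11 to 0.025 and from -0.0057 to 0.53 for H3K4me3, and from 0.022 to 0.19 and from 0.18 to 1.15 for H3K27ac. The H3K4me3 medians thus changed sign, without PP mouse 3 for LP alone and with limma and sva for PP alone. Promoter shares were larger with a window of 2000 bp (21.6% of LP-only and 18.6% of PP-only ATAC peaks) and string shares smaller in 100 bp, by construction. No list gives the read depth of its library, so what each library could detect is unknown.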
